A study of Mus musculus with 10 samples.

Results

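The BCL2 family of apoptosis regulators was followed through 10 RNA-seq libraries of sorted mouse retinal ganglion cells. Its 10 members here were chosen by symbol: Bcl2, Bcl2l1, Bcl2l2, Mcl1, Bax, Bak1, Bcl2l11, Bbc3, Bad and Bid. All 10 were found among the 23259 gene symbols of the table. The cells came from retinae of C57BL/6 mice at postnatal day 6 and were collected by flow cytometry for green fluorescence, about 1000 cells per sample. Of the libraries, 5 came from mice with the Hb9-GFP reporter and an intact Satb1 gene (wild-type 1 to 5), and 5 from Satb1-/- mice with the same reporter (knockout 1 to 5). Both groups therefore carry Hb9-GFP, a transgene in which the Hb9 (Mnx1) promoter drives the fluorescent protein, and differ in Satb1, a chromatin organizer and transcription factor. The samples of a genotype came from different litters, and the cDNA was amplified before library construction. Values are TPM, which corrects for the length of a transcript and the size of the library, so levels of different genes can be set side by side.

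The BCL2 family decides at the mitochondrial outer membrane whether a cell dies. Bax and Bak1 are the effectors that form pores there and release cytochrome c, which leads to caspase activation. Bcl2, Bcl2l1 (Bcl-xL), Bcl2l2 (Bcl-w) and Mcl1 hold them in check, and the BH3-only proteins Bcl2l11 (Bim), Bbc3 (Puma), Bad and Bid start the process by binding the survival proteins or the effectors. In the developing retina many ganglion cells die in the first postnatal days, and this death depends on Bax.

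All of these proteins are related through 1 short helix, the BH3 motif, with which a death protein docks into the groove of a survival protein. A search of the coding sequence of the principal GENCODE M21 transcript of each gene (build GRCm38, which is mm10) for the BH3 core found exactly 1 match in each of the 10 members. The stretches are shown because they are what makes these genes a family. The 24 bases (8 codons) of the core are in capitals, with 9 bases on each side, on the coding strand from 5′ to 3′.
Bcl2: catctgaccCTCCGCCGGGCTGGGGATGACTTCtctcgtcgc
Bcl2l1: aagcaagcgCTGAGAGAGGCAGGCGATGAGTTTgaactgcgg
Bcl2l2: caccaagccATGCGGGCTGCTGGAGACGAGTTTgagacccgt
Mcl1: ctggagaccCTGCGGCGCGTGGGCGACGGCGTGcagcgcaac
Bax: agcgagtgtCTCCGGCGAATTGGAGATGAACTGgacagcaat
Bak1: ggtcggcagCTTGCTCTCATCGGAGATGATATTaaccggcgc
Bcl2l11: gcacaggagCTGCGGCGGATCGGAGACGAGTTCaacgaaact
Bbc3: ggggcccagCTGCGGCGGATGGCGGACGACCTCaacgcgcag
Bad: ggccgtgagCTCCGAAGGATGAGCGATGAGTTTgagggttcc
Bid: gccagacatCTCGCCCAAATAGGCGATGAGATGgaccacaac
The search pattern, in amino acid letters, was L/M, any, any, A/V/I/M, G/A/S, D, D/E/G, F/V/L/I/M. At each position the pattern allows just the letters that these 10 genes carry, so a match in each gene was fixed in advance. Of the 24 core bases, 5 (positions 2, 16, 17, 19 and 23) are the same in all 10 genes. The genetic code fixes these 5 for any match to the pattern, so they follow from the search and are no finding about the family. They also count in the comparison of pairs. Over the 45 pairs of genes, 9 to 19 of the 24 bases are shared, and the closest pair is Bcl2l11 and Bbc3, both BH3-only genes.

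Library quality and identity bear on every value below. The number of genes at 1 TPM or more ran from 10073 to 12556 over the libraries. All 11 ganglion cell markers examined, among them Rbpms, Pou4f2 and Slc17a6, were above 0 in all 10 libraries. Their levels differed between libraries, and not all in 1 direction. Slc17a6 was at 55.2 to 96.7 TPM in wild-type 5, knockout 4 and knockout 5 and at 176 to 726 TPM in the other 7. Gap43 was at 1380 to 2123 TPM in those 3 libraries and at 672 to 1370 TPM in the rest. The reporter's own gene Mnx1 was at 0 to 8.04 TPM. Markers of other cells varied by library, with a summed level of 10 microglia and macrophage genes of 7.01 to 2289 TPM among wild-type libraries and 76.2 to 3099 TPM among knockout libraries. The first principal component (32.9% of the variance) set wild-type 5, knockout 4 and knockout 5 apart from the other 7 libraries, and the share of TPM held by ribosomal protein genes was 12.4% to 13.9% in those 3 against 3.94% to 8.09% in the rest. Satb1 transcripts were still present in the knockout libraries, between 24.1 and 170 TPM, where wild-type libraries had 38.6 to 414 TPM. The groups overlapped (log2 difference -1.25, SE 0.71; two-sided exact permutation p = 0.135). Which part of Satb1 is deleted is not stated, so this is a weak check of the labels. The summed level of 7 markers of the ON-OFF direction-selective ganglion cell subtype, Satb1 included, did separate the genotypes. It was between 666 and 1521 TPM (wild-type) and between 140 and 478 TPM (knockout). Of the single markers only Cartpt did so, between 56.8 and 843 TPM (wild-type) and between 1.63 and 47.3 TPM (knockout). The others overlapped, such as Mmp17 (14 to 129 TPM in wild-type, 2.21 to 20.5 TPM in knockout) and Cdh6 (75.2 to 309 TPM and 38.7 to 179 TPM). In such bulk samples, fewer cells of a type and less RNA per cell cannot be told apart, and the part of this difference in the values of the family was not tested.

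None of the 10 members was called different between the genotypes. The test was limma's moderated test on log2(TPM + 1) over 11745 genes, and all 10 members had at least 1 TPM in at least 5 libraries and were tested. At a Benjamini-Hochberg adjusted p under 0.05 limma called 0 of the 10 members and 0 of all 11745 genes (0%). At an unadjusted p under 0.05 it had 1 member, Bcl2l11, which was lower in knockout, against 2.57% of all tested genes lower, 0.741% higher and 3.31% in either direction. For no member were the 5 knockout libraries all on one side of the 5 wild-type libraries, as was the case for 0.426% of tested genes with knockout lower and 0.0766% with knockout higher. By sign alone 7 members were lower and 3 higher in knockout, with a median log2 difference of -0.13, where 67.4% of all tested genes were lower and their median was -0.31. Differences of single genes are to be read relative to that general shift. Centring each library on its median moved the median of all genes to 0.07 and left 3 members lower and 7 higher.

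**Figure D1:**
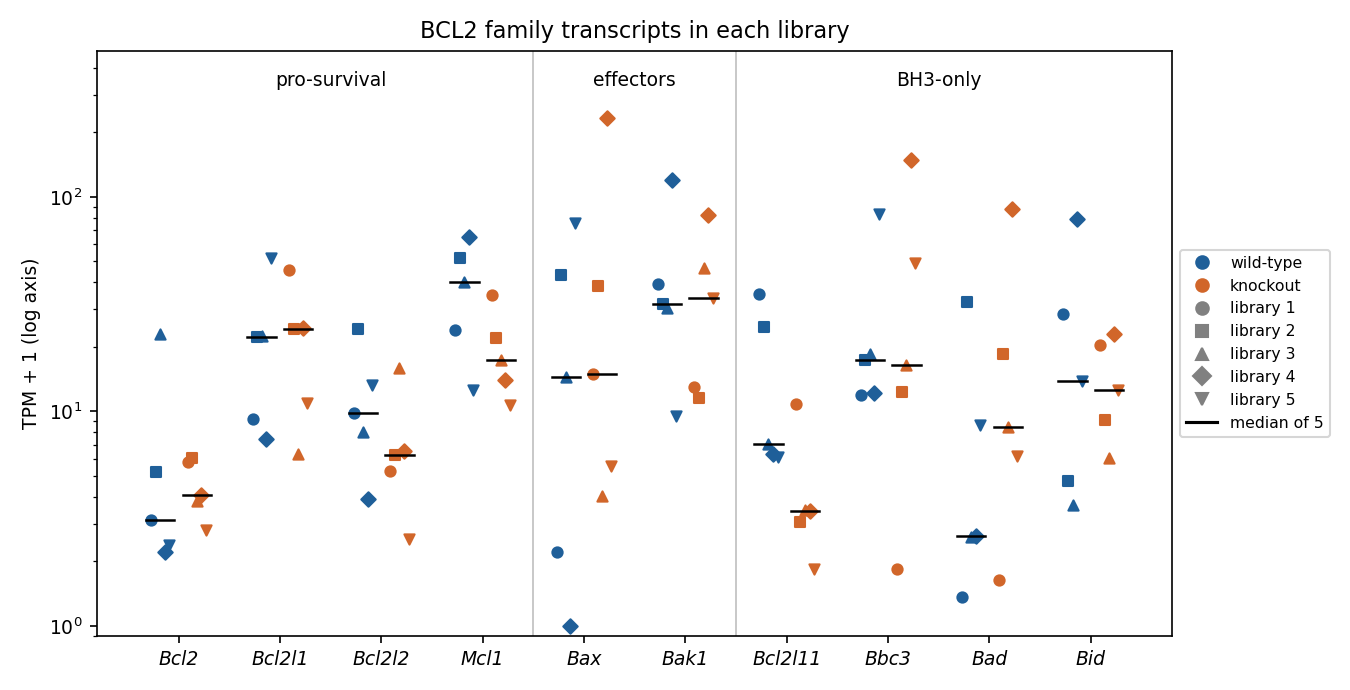
TPM + 1 on a log axis for the 10 family members, in each of the 5 wild-type (blue) and 5 knockout (orange) libraries, with the symbol marking the library number and the bar the median of 5. The genotypes overlap for every gene, and Bax spans from 0 to 233 TPM.

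Among the pro-survival genes, the Mcl1 and Bcl2l1 transcripts were the most abundant and Bcl2 itself the least. Mcl1 encodes a short-lived survival protein and lies on chromosome 3 (95658788 to 95663176, plus strand, mm10; BH3 core stretch at chr3:95659427-95659468, exon 1 of 3). Its levels were 22.9, 50.9, 39.1, 64.0 and 11.6 TPM (wild-type 1 to 5) and 33.7, 20.9, 16.4, 13 and 9.72 TPM (knockout 1 to 5). Wild-type 2, 3 and 4 were above every knockout library, while wild-type 1 and 5 lay within the knockout range. Wild-type libraries averaged 37.7 ± 21.0 TPM and knockout libraries 18.7 ± 9.32 TPM (SD, n = 5 each), and the log2 difference was -0.87 (SE 0.68, 95% interval -2.29 to 0.54; two-sided exact permutation p = 0.127; limma adjusted p = 0.992). In 20 of the 25 pairs of a knockout and a wild-type library the knockout was lower.

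Bcl2l1, the source of Bcl-xL, lies on chromosome 2 (152780668 to 152831728, minus strand; BH3 core stretch at chr2:152829691-152829732, exon 2 of 3). Its levels were 8.20, 21.3, 21.4, 6.40 and 50.7 TPM (wild-type 1 to 5) and 44.5, 23.1, 5.34, 23.5 and 9.97 TPM (knockout 1 to 5). High and low libraries occurred in both genotypes, and the means were 21.6 ± 17.7 and 21.3 ± 15.2 TPM (SD, n = 5 each). The log2 difference was 0.02 (SE 0.77, two-sided exact permutation p = 0.976). Its 95% interval of -1.59 to 1.62 does not show that the genotypes are alike, since changes of that size in either direction lie within it.

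Bcl2l2, the source of Bcl-w, lies on chromosome 14 (54883377 to 54888234, plus strand; BH3 core stretch at chr14:54884508-54884549, exon 3 of 4). It was at 8.80, 23.1, 7.05, 2.91 and 12.2 TPM (wild-type 1 to 5) and 4.28, 5.29, 15, 5.56 and 1.54 TPM (knockout 1 to 5). The knockout mean was the lower one, 6.33 ± 5.09 against 10.8 ± 7.66 TPM (SD, n = 5 each), but knockout 3 was above all wild-type libraries except wild-type 2. The log2 difference of -0.70 (SE 0.77; two-sided exact permutation p = 0.294) was within the spread between replicates. It was -0.38 without wild-type 2 or without knockout 5, -1.04 without knockout 3, and -0.20 without wild-type 5 and knockout 4 and 5. The annotation places 4794 bases of Bcl2l2 inside the same-strand gene Gm20521, so reads of the 2 genes may be shared.

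Bcl2, the founding member, lies on chromosome 1 (106538178 to 106714274, minus strand; BH3 core stretch at chr1:106712569-106712610, exon 1 of 2). It was low in 9 libraries, at 2.13, 4.24, 1.21 and 1.37 TPM in wild-type 1, 2, 4 and 5 and at 4.80, 5.05, 2.84, 3.09 and 1.80 TPM in knockout 1 to 5. Only wild-type 3 was high, at 21.9 TPM. That library sets the wild-type mean of 6.17 ± 8.88 TPM, where the knockout mean was 3.51 ± 1.38 TPM (SD, n = 5 each), while the medians were in the other order, 2.13 and 3.09 TPM. The log2 difference was -0.07 (SE 0.75; two-sided exact permutation p = 0.944), and 0.51 without wild-type 3.

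The 2 effectors differed in how steady they were. Bak1 lies on chromosome 17 (27019810 to 27029009, minus strand; BH3 core stretch at chr17:27022525-27022566, exon 4 of 6) and had the highest median of the family, 31.7 TPM. It was at 38.4, 30.8, 29.2, 119 and 8.53 TPM (wild-type 1 to 5) and 12, 10.5, 45.7, 81.0 and 32.6 TPM (knockout 1 to 5). Every knockout library lay within the wild-type range (45.1 ± 42.6 and 36.4 ± 29.0 TPM, SD, n = 5 each; log2 difference -0.23, SE 0.77; two-sided exact permutation p = 0.817). The whole gene overlaps Ggnbp1 on the opposite strand over 9200 bases, and whether the counting used strand is not stated.

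Bax, the effector on which developmental ganglion cell death depends, lies on chromosome 7 (45461697 to 45466898, minus strand; BH3 core stretch at chr7:45465991-45466032, exon 3 of 6). Its levels were 1.22, 42.0, 13.4, 0 and 74.8 TPM (wild-type 1 to 5) and 14, 37.5, 3.04, 233 and 4.54 TPM (knockout 1 to 5). Both genotypes held libraries below 5 TPM and above 35 TPM. The value of exactly 0 in wild-type 4 may be a failed estimate, so no mean is given. With that 0 included, the log2 difference was 0.97 (SE 1.2, 95% interval -1.54 to 3.48; two-sided exact permutation p = 0.563), which fell to 0.14 without wild-type 4 and 0.08 without knockout 4. Over all 10 omissions of 1 library it ran from 0.08 to 1.70. The ratio of Bax to Bak1 ran from 0 to 8.77 in wild-type and from 0.0666 to 3.56 in knockout, so that either effector could be the more abundant one in both genotypes. A stretch of 915 bases of Bax is shared with the same-strand gene Gm45808.

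Of the BH3-only genes, Bcl2l11 had the lowest knockout levels relative to wild-type of all 10 members. The gene encodes Bim, a potent killer that binds all the survival proteins, and lies on chromosome 2 (128126038 to 128162547, plus strand; BH3 core stretch at chr2:128147141-128147182, exon 3 of 4). It stood at 34.2, 23.7, 6.04, 5.33 and 5.13 TPM (wild-type 1 to 5) and 9.79, 2.04, 2.47, 2.44 and 0.834 TPM (knockout 1 to 5). Knockout 2 to 5 were below every wild-type library, and knockout 1 was above wild-type 3, 4 and 5. Wild-type libraries averaged 14.9 ± 13.4 TPM and knockout libraries 3.52 ± 3.57 TPM (SD, n = 5 each), and the log2 difference was -1.67 (SE 0.79, 95% interval -3.32 to -0.03). The two-sided exact permutation p was 0.0317, with such tests made for all 10 members and for Satb1, and the unadjusted limma p was 0.0463. Over all tested genes the limma adjusted p was 0.992, so Bcl2l11 did not pass.

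The Bcl2l11 difference kept its sign in all 21 alternative fits (-2.12 to -1.05, limma adjusted p 0.651 to 1), among them -1.30 after median centring. Leaving out 1 library gave an unadjusted limma p of 0.0201 to 0.129, under 0.05 in 4 of the 10 cases. The 2 highest libraries, wild-type 1 and 2, were also the highest for a summed list of 6 endothelial and pericyte markers, at 59.6 and 47.4 TPM. Other libraries did not follow that order: wild-type 4 was the next for the list (24.8 TPM) with Bcl2l11 at 5.33 TPM, and knockout 1 the next for Bcl2l11 (9.79 TPM) with a list sum of 0.577 TPM. Over all libraries that list summed to 0.65 to 59.6 TPM (wild-type) and 0.277 to 6.88 TPM (knockout). Most of the sum in wild-type 1 and 2 was the pericyte gene Rgs5 (38.6 and 42.9 TPM). The endothelial markers Cdh5 and Cldn5 were at 0 in 7 and 9 of the 10 libraries. Wild-type 1 held the only Cldn5 value above 0 (4.22 TPM) and the highest Pecam1 (10.8 TPM), followed by knockout 2 (4.03 TPM). Pdgfrb was highest in wild-type 1 and 2 (4.64 and 2.85 TPM). Kdr was above 0 in every library and highest in knockout 5 (1.49 TPM). The part of these 6 markers in the Bcl2l11 values was not tested.

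**Figure D2:**
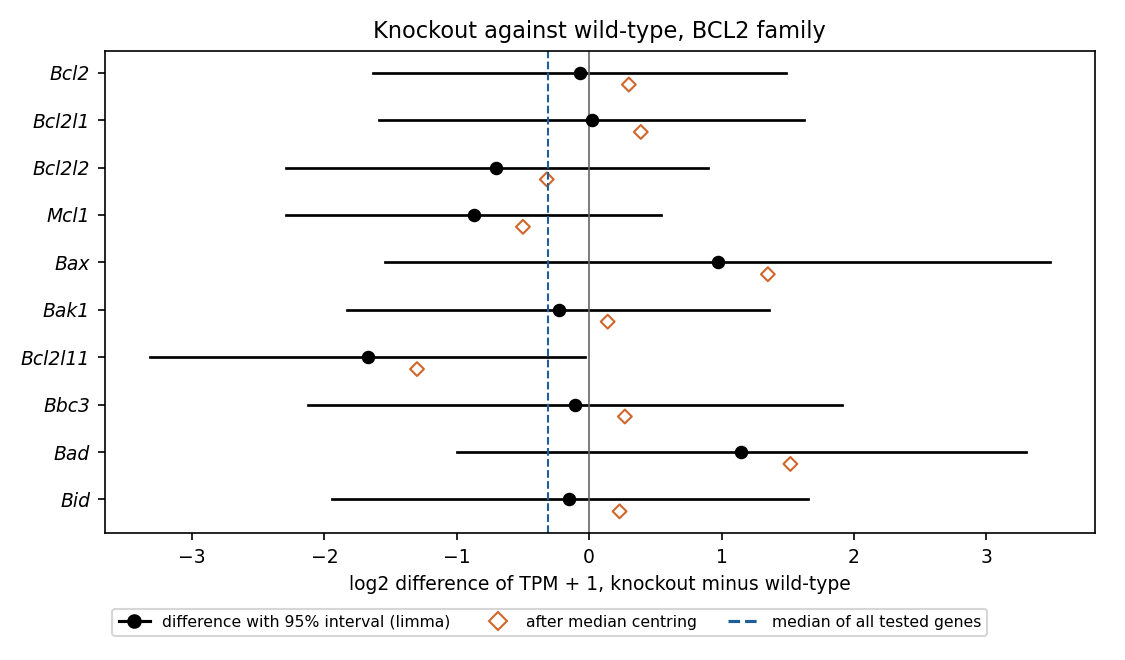
Log2 difference of TPM + 1, knockout minus wild-type, for each member, as a point with its 95% interval from limma, with the value after median centring as an open diamond and the median of all tested genes (-0.31) as a dashed line. The interval of Bcl2l11 (-3.32 to -0.03) ends just below 0, and those of the other 9 genes include 0.

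Bbc3 encodes Puma, a known target of the p53 protein, and lies on chromosome 7 (16308393 to 16318205, plus strand; BH3 core stretch at chr7:16313764-16313805, exon 3 of 4). It was at 10.9, 16.4, 17.6, 11.2 and 82.3 TPM (wild-type 1 to 5) and 0.841, 11.3, 15.5, 147 and 48.4 TPM (knockout 1 to 5). The 3 highest values belonged to wild-type 5, knockout 4 and knockout 5, and the lowest to knockout 1. The means were 27.7 ± 30.7 and 44.5 ± 59.8 TPM (SD, n = 5 each), with a log2 difference of -0.11 (SE 0.97; two-sided exact permutation p = 0.921), so the means and the log-scale difference had opposite signs.

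Bad, which growth factor signalling silences by phosphorylation, lies on chromosome 19 (6941861 to 6951899, plus strand; BH3 core stretch at chr19:6950783-6950824, exon 3 of 4). It was at 0.366, 31.5, 1.60, 1.62 and 7.62 TPM (wild-type 1 to 5) and 0.644, 17.5, 7.44, 86.9 and 5.21 TPM (knockout 1 to 5). The knockout median of 7.44 TPM was above the wild-type median of 1.62 TPM, but both groups ran from under 1 TPM to over 30 TPM. The log2 difference was 1.15 (SE 1.03, 95% interval -1 to 3.30; two-sided exact permutation p = 0.373), with 0.39 without knockout 4 and 1.84 without wild-type 2. Bad overlaps Gpr137 on the opposite strand over 620 bases.

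Bid, which caspase cleavage turns into its active form, lies on chromosome 6 (120891930 to 120916853, minus strand; BH3 core stretch at chr6:120897283-120897324, exon 4 of 6). It was at 27.4, 3.76, 2.65, 77.9 and 12.9 TPM (wild-type 1 to 5) and 19.3, 8.16, 5.07, 22 and 11.6 TPM (knockout 1 to 5). The knockout values all lay inside the wild-type range (24.9 ± 31.2 and 13.2 ± 7.22 TPM, SD, n = 5 each; log2 difference -0.15, SE 0.86; two-sided exact permutation p = 0.881). Bid overlaps the family gene Bcl2l13 on the opposite strand over 913 bases. Bid and Bak1 were both highest in wild-type 4. The summed microglia and macrophage markers were 2289 TPM in that library, 2681 TPM in knockout 2 and 3099 TPM in knockout 5, where Bid was at 8.16 and 11.6 TPM and Bak1 at 10.5 and 32.6 TPM.

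The order of the 10 members was not fixed as a whole: neighbours in level changed places, while Bak1 and Mcl1 were each above Bcl2 in all 10 libraries. By median over the 10 libraries the order was Bak1 (31.7 TPM), Mcl1 (21.9), Bcl2l1 (21.3), Bbc3 (16), Bax (13.7), Bid (12.2), Bad (6.33), Bcl2l2 (6.30), Bcl2l11 (5.23) and Bcl2 (2.96 TPM). Neighbours in this order kept it in only 4 to 6 of the 10 libraries, and for each of the 9 neighbouring pairs the mean within-library log2 difference was smaller than its SD. The most abundant member changed with the library: Bak1 in 3 libraries, Mcl1, Bax and Bbc3 in 2 each and Bcl2l1 in 1. Against the medians of all tested genes, Bak1 stood above 71.2%, Mcl1 above 61.8% and Bcl2 above 15.0% of them.

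Summed by role, the 4 pro-survival genes averaged 76.3 ± 21.7 TPM (wild-type) and 49.9 ± 23.8 TPM (knockout; SD, n = 5 each), with ranges of 42.1 to 99.6 and 23.0 to 87.3 TPM. The pro-survival share of the family's TPM was 25.7% to 55.9% in wild-type and 7.31% to 60.6% in knockout. Its lowest and highest values were both knockout libraries, 4 and 1. The 4 BH3-only genes summed to 27.9 to 108 TPM over wild-type libraries and to 30.5 to 258 TPM over knockout libraries. The effectors summed to 39.7 to 119 TPM in wild-type, to 26.0 to 48.7 TPM in 4 knockout libraries and to 314 TPM in knockout 4. The whole family came to 224 ± 62.3 TPM over wild-type libraries (155 to 289 TPM) and 230 ± 217 TPM over knockout libraries (SD, n = 5 each). The knockout libraries stood at 144, 141, 119, 618 and 126 TPM (knockout 1 to 5), so the mean was set by knockout 4 while the median, 141 TPM, was below the wild-type median of 248 TPM.

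**Figure D3:**
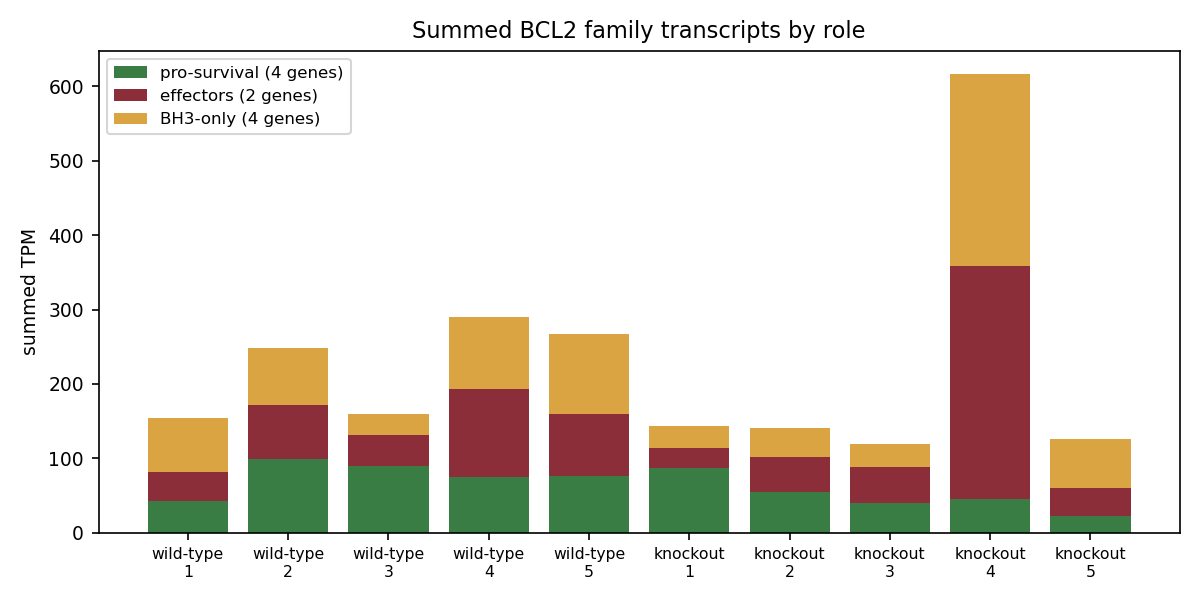
Summed TPM of the 4 pro-survival, 2 effector and 4 BH3-only members in each library, stacked. Knockout 4 stands at 618 TPM through Bax, Bbc3 and Bad, and the other 9 libraries lie between 119 and 289 TPM.

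The members fell into unequal groups by how much they varied between libraries of 1 genotype. The within-group SD on the log2 scale was 2.53 for Bax, 1.97 for Bad and 1.86 for Bbc3, larger than for 98.5%, 93.2% and 91.0% of all tested genes, whose median was 1.2. Without wild-type 4, where Bax was listed at 0, the SD of Bax was 2.31, larger than for 97.3% of genes. It was 0.81 for Mcl1, larger than for 14.1%, and between 0.95 and 1.41 for the other 6. The 4 libraries with most Bax were also the 4 with most Bad: wild-type 2 and 5 and knockout 2 and 4. Knockout 4 was the highest of all 10 libraries for Bax, Bad and Bbc3 alike. The principal transcripts of these 3 genes had the highest G and C content of the family, 59.2% for Bax, 61.3% for Bad and 65.2% for Bbc3, against 46.3% to 57.1% for the other 7. At 867, 1452 and 1814 bases they were also the shortest, against 2189 to 7191 bases. The part of base content and length in the spread was not tested.

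Mcl1 and Bbc3 each separated the 3 libraries apart on the first principal component from the other 7, in opposite directions. In wild-type 5, knockout 4 and knockout 5, Bbc3 was at 82.3, 147 and 48.4 TPM, while in the other 7 libraries it was at 0.841 to 17.6 TPM. Mcl1 was at 11.6, 13 and 9.72 TPM in those 3 and at 16.4 to 64.0 TPM in the other 7. Some ganglion cell markers split too, in both directions. Pou4f1 was at 37.4 to 72.7 TPM in the 3 libraries against 194 to 371 TPM in the other 7, and Pou4f2 at 45.2 to 164 TPM against 243 to 839 TPM. Thy1 was higher in the 3, at 1397 to 2105 TPM against 705 to 1329 TPM, as was Gap43, at 1380 to 2123 TPM against 672 to 1370 TPM. Others, such as Rbpms and Nefl, overlapped. All 11 markers summed to 13943 to 19420 TPM in the 3 and to 15478 to 100428 TPM in the other 7. The part of these markers in the Mcl1 and Bbc3 values was not tested. These libraries were set apart by their own expression values and belong to both genotypes, so this is a description with no test. Many genes may split a set of libraries chosen in that way. The share of all tested genes that did so was not determined, so the split is not shown to be particular to Mcl1 and Bbc3. Without the 3 libraries the Mcl1 means were 44.2 ± 17.5 TPM in wild-type (SD, n = 4) and 23.7 ± 8.97 TPM in knockout (SD, n = 3), with a log2 difference of -0.84. The Bbc3 means were then 14 ± 3.47 and 9.20 ± 7.54 TPM, with a difference of -1.03, and Bak1 had a difference of -1.27. No member passed the limma threshold in that fit.

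**Figure D4:**
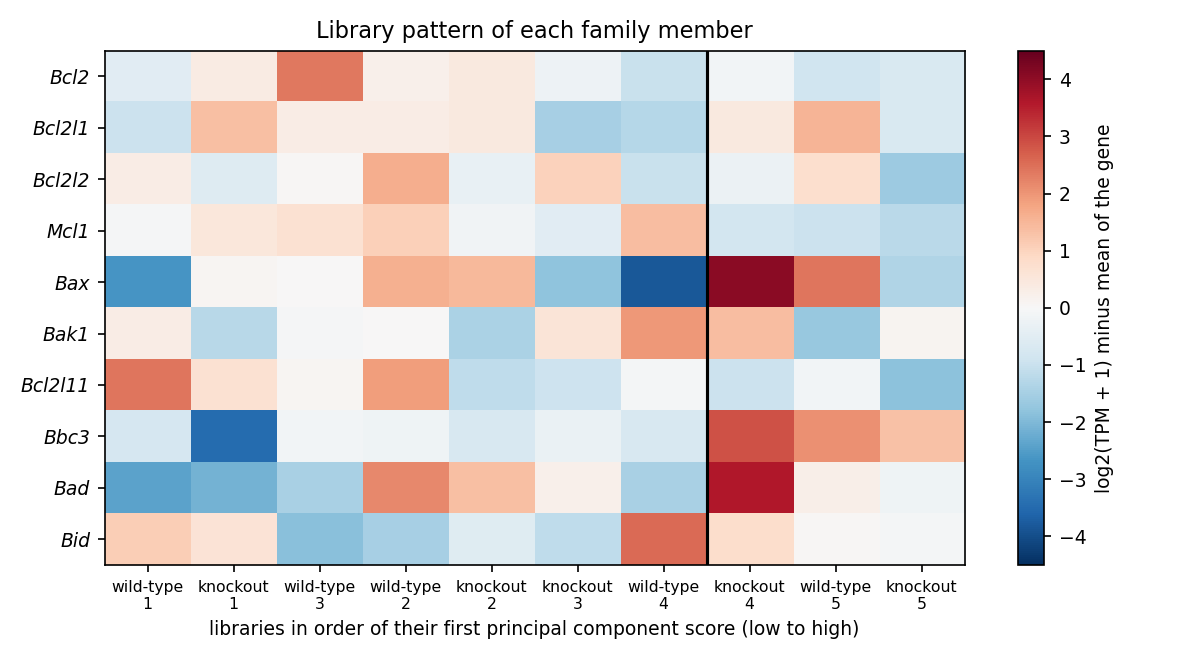
Log2(TPM + 1) of each member minus its mean over the 10 libraries (color), with libraries ordered by their score on the first principal component and a line before the 3 that stand apart. Bbc3 is high and Mcl1 low in all 3 libraries right of the line, and knockout 4 is highest for Bax, Bbc3 and Bad.

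The genes closest to 2 members in their profile over the 10 libraries were found by the mean absolute difference of log2(TPM + 1) profiles, each centred on its own mean. For Mcl1, the survival gene with the highest median, though Bcl2l1 was above it in 5 of the 10 libraries, these were the sodium and calcium exchanger gene Slc8a3 (0.27), Tmem170 (0.28) and Wdr13 (0.28), where the median of 10635 compared genes was 0.94. For Bak1, the death gene with the highest median, though not the highest mean (40.8 TPM, Bax 42.4 TPM with its 0 included), they were Gpn3 (0.38), Zfp623 (0.49) and Zfp866 (0.49), against a median of 1.33. Like Mcl1, Wdr13 was lower in wild-type 5, knockout 4 and knockout 5 (40.4, 34.4 and 45.5 TPM) than in wild-type 1 to 4 (73.1 to 138 TPM), although knockout 3 was low as well (45.2 TPM). Gpn3 shared with Bak1 its highest value in wild-type 4, 80.5 TPM.

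Other genes around the family were examined in 6 lists with 77 members, of which 56 were tested. None was called by limma at an adjusted p under 0.05, and 1 of them, Ngfr, had an unadjusted p under 0.05 (lower in knockout), against 3.31% of all tested genes in either direction. Of the 56, 41 were lower and 15 higher in knockout (73.2% lower, against 67.4% of all tested genes), with a median log2 difference of -0.34 against -0.31.

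The other members of the BCL2 family were mostly close to 0. Of 15 such genes 6 were tested, 3 lower and 3 higher. The BH3-only gene Bik was listed at 0 in all 10 libraries, and the BH3-only genes Bmf and Pmaip1 (Noxa) reached 4.05 and 2.89 TPM at most. Bnip3l, a mitophagy receptor, had the highest median of these genes over the 10 libraries, with means of 104 ± 60.2 TPM (wild-type) and 87.6 ± 64.4 TPM (knockout; SD, n = 5 each; log2 difference -0.26). Bok, an effector-like relative of Bax, was between 6.31 and 94.4 TPM (wild-type), at 15 to 95.3 TPM in knockout 1, 2, 3 and 5, and at 889 TPM in knockout 4, which again held the highest value. Bcl2a1b, a survival gene of blood-derived cells, was highest in knockout 5, knockout 2 and wild-type 4 (85.2, 44.8 and 10.5 TPM), the same 3 libraries that had the highest summed microglia and macrophage markers. The part of those cells in the Bcl2a1b values was not tested, and reads may be split between Bcl2a1b and its near-identical copies Bcl2a1a and Bcl2a1d.

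Downstream of the family, none of the apoptosome and caspase genes passed. The 9 outer membrane partners and apoptosome genes had 5 lower and 4 higher (median -0.00), and the 8 tested caspase genes and substrates 4 lower and 4 higher (median -0.03). Vdac1, the outer membrane channel, was at 274 ± 151 and 453 ± 431 TPM (SD, n = 5 each). Casp9, the caspase recruited to the apoptosome, was between 2.05 and 107 TPM (wild-type) and between 6.67 and 23.4 TPM (knockout). Diablo, which blocks inhibitors of apoptosis, stood at 837 TPM in knockout 3 and at 2.94 to 54.8 TPM in the other 9 libraries. Endog, a mitochondrial nuclease, was at 0.657 to 75 TPM over wild-type libraries and at 2.78, 0.81, 0, 42.4 and 0 TPM in knockout 1 to 5. Casp8, the enzyme that cleaves Bid, was at 60.5, 145 and 48.9 TPM in wild-type 1, wild-type 4 and knockout 2 and at 0 to 6.07 TPM elsewhere, and Bid was highest in wild-type 4 and 1 but at 8.16 TPM in knockout 2. Of 3 tested inhibitors of apoptosis, Birc6 had a log2 difference of -1.06 (SE 0.70) and Xiap of -0.69 (SE 0.76).

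Upstream, 15 of 16 tested death signalling genes were lower by sign (median -0.55), and 12 of 14 survival signalling genes (median -0.43). After median centring the counts were 10 of 16 and 8 of 14, and 46.1% of all genes were then lower. Without wild-type 5 and knockout 4 and 5 they were 10 of 16 and 11 of 14, against 61.8% of all genes. Ngfr, the p75 neurotrophin receptor, was at 17.6, 7.44, 1, 69.5 and 2 TPM (wild-type 1 to 5) and 0.648, 0.146, 1.10, 0.78 and 0.818 TPM (knockout 1 to 5). Only wild-type 3 and knockout 3 broke the separation (log2 difference -2.47, SE 0.85). The unadjusted limma p was 0.00875. The 3 libraries with most Ngfr, wild-type 4, 1 and 2, were also the 3 with the highest endothelial and pericyte marker sums (24.8, 59.6 and 47.4 TPM, against 0.277 to 6.88 TPM elsewhere), and the part of those cells was not tested. Map3k13, a kinase of axonal stress signalling, was at means of 26.5 ± 17.3 TPM (wild-type) and 7.98 ± 4.49 TPM (knockout; SD, n = 5 each; -1.68, SE 0.81). The death receptor gene Tnfrsf21 had the highest median of its list over the 10 libraries, with means of 152 ± 120 and 162 ± 204 TPM. Akt1, the kinase that phosphorylates Bad, was at 109 ± 42.9 and 48.3 ± 23.7 TPM (-1.16, SE 0.58), and its activating kinase Pdpk1 had a log2 difference of -1.25 (SE 0.87). Ywhae, an adaptor that holds phosphorylated Bad, had the highest median of its list, with means of 1951 ± 1138 and 1311 ± 832 TPM. For all of these the limma adjusted p was 0.992.

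**Figure D5:**
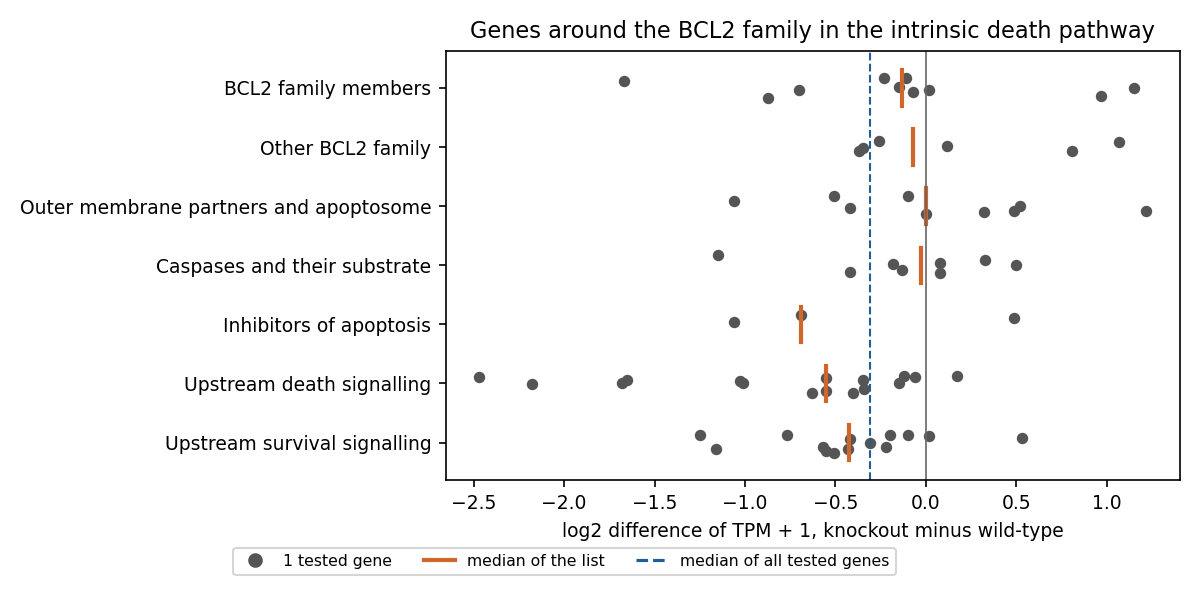
Log2 difference of TPM + 1, knockout minus wild-type, of each tested gene (point) in the BCL2 family and 6 lists of the intrinsic death pathway, with the median of each list (orange) and of all tested genes (dashed, -0.31). The lists of upstream signalling genes lie mostly below 0, and the median of the 10 family members is -0.13.

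The spread between libraries limited what could be told apart. The SE of the members' log2 differences ran from 0.68 for Mcl1 to 1.2 for Bax. The 95% interval was accordingly -2.29 to 0.54 for Mcl1 and -1.54 to 3.48 for Bax, and with 5 libraries per genotype the differences within these bounds could not be told apart.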

How the data were processed

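The deposited table gives log10(TPM + 1) values made by the authors, 1 column per sample. After back-transformation every library summed to 1000000 TPM. Per the submitters' processing notes, TopHat2 2.0.10, Cufflinks and the build mm10 were used; how reads were counted, on which annotation and with which strand setting is not given in the sources used. No depth can be read from TPM, so it is unknown. The 25 entries named by a bare 5-digit number (0.0438% to 0.198% of the TPM) were left out, and 240 symbols on more than 1 line were summed.

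The test used log2(TPM + 1) and every gene that reached 1 TPM in 5 or more libraries, with limma 3.58.1 (R 4.3.3), genotype as the only term and a mean-variance trend, with Benjamini-Hochberg adjustment over all 11745 genes. Fold changes on this scale understate the change of low genes. Two-sided exact permutation tests used all 252 divisions of the 10 libraries (smallest possible p 0.00794). The members and the gene lists were chosen with earlier results of these data known. Named were all members, the 2 genes of each list with the smallest p and the one with the highest median TPM, and the 3 genes with a profile most like that of the survival and the death gene with the highest median TPM. Bik, Bmf and Pmaip1 and the shared values of single libraries were added after their values were seen, and 1 gene that the rule names is not reported here. Gene positions and coding stretches come from GENCODE M21, where the BH3 core was searched in the translated reading frame of 1 principal transcript per gene. The fit was tested on simulated data, where it recovered 0.2% of 2-fold, 7.8% of 4-fold, 42% of 8-fold and 74% of 16-fold changes. The changes were put only into genes with a mean log2(TPM + 1) above 4, with noise drawn for each gene on its own. Most changes of 4-fold or less in such genes would therefore go uncalled. Lower genes, such as Bcl2 and Bcl2l11, and variation shared between genes were not simulated. Alternatives covered the pseudocount, filter, scaling, replicate block, library weights, variance trend and libraries left out. The spread of Bax without wild-type 4 was added after seeing the data.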

Additional observations from a re-analysis of the deposited data

Results flagged for a closer look

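Bbc3 in wild-type 5 was far from the other 4 wild-type libraries, at 82.3 TPM against 10.9 to 17.6 TPM. On the log2 scale the gap to the next library was 0.771 of the range of the group, above the critical value of 0.71 of Dixon's test for 5 samples. It was the only one of 22 groups (the 10 members and Satb1, in each genotype) past that value, and chance alone puts about 1 in 20 groups past it. Wild-type 5 was 1 of the 3 libraries apart on the first principal component, and the other 2, knockout 4 and 5, were the highest knockout libraries for Bbc3 (147 and 48.4 TPM).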

How the results depend on the processing

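In all 21 alternative fits limma called 0 family members and 0 of the other pathway genes. Across all genes it called 0 in the main fit (389 at an unadjusted p under 0.05), 1 with a filter of 5 TPM in 5 libraries, 3 with library weights, 1 without a variance trend, and 0 to 1 on leaving out each library in turn. Bcl2l11, Bcl2l2, Mcl1, Bax and Bad kept their direction in all 21 fits. The small differences of the other 5 members changed sign in 5 to 7 fits each, and the cause was not tested. Median centring gave 0.30 for Bcl2, 0.14 for Bak1, 0.27 for Bbc3 and 0.23 for Bid, and quantile normalization 0.29, 0.02, 0.21 and 0.15. Library weights gave -0.06 for Bcl2l1, 0.00 for Bbc3 and 0.13 for Bid. A term for wild-type 5 and knockout 4 and 5 gave 0.09 for Bcl2 and -0.11 for Bcl2l1. A pseudocount of 0.1 gave 0.02 for Bcl2, and one of 5 gave 0.11 for Bbc3. Leaving out each library in turn gave -0.33 to 0.51 for Bcl2, -0.32 to 0.40 for Bcl2l1, -0.69 to 0.22 for Bak1, -0.84 to 0.74 for Bbc3 and -0.63 to 0.48 for Bid. Bcl2 had no value under the filter of 5 TPM. No label ties same-numbered libraries of the 2 genotypes together. Their deviations from the group means correlated, across genes, at 0.225, 0.074, 0.132, -0.032 and 0.364 for numbers 1 to 5. Of the 10 libraries, 5 correlated best with their own number, each among 5 candidates. Wild-type 5 and knockout 5, which had the highest value, both stood apart on the first principal component. Whether the numbers mark pairs cannot be told from these values. With the replicate number as a block, 0 genes were called. Of all 11745 genes, 829 then had an unadjusted limma p under 0.05 (389 in the main fit). So did 7 of the 56 other pathway genes (1 in the main fit). Bcl2l11 had a limma adjusted p of 0.692 with the block, as against 0.651 to 1 over its alternatives. Depth is unknown, and the spread between replicates limits what these values can show.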
